A study of Rattus norvegicus with 8 samples.

Results

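The genes described here are the families of enzymes that modify foreign compounds (xenobiotics), bile acids, steroids and retinoids. They were chosen by symbol: every gene whose symbol begins with Cyp1, Cyp2, Cyp3, Cyp4, Ugt1, Ugt2, Sult, Gsta, Gstm, Gstt, Gsto, Gstk, Ces or Aldh1 and that had a probe set of the Affymetrix Rat Genome 230 2.0 array to itself. Of 14217 genes with such a probe set, 106 were members, and 57 of them were tested among 9258 genes because their mean signal exceeded 6.69, which is the median over the probe sets of the array. The other 49 are called dim below. For a gene with several probe sets the brightest was used, and a signal is the quantile normalized intensity in array units, which orders arrays for 1 gene but not 1 gene against another.

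The RNA came from epithelial cells loosened with dithiothreitol and EDTA from the proximal small intestine of female Wistar rats aged 4 months. TW rats drank tap water for 3 days, DSW1200 rats drank deep sea water of hardness 1200 for 3 days, SeW rats drank selenium water for 3 days, and WR rats had water restriction for 12 h. Each of the 4 groups had 2 arrays, 8 in all. The labels do not say whether the 2 arrays of a group came from separate rats, so p-values measure the spread between these samples, which may be technical, and 2 arrays against 2 cannot give an exact permutation p below 0.333.

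Xenobiotic metabolism proceeds in steps. Cytochromes P450 (Cyp), carboxylesterases (Ces) and aldehyde dehydrogenases (Aldh1) oxidize or hydrolyse a compound and expose or create a polar group. UDP-glucuronosyltransferases (Ugt), sulfotransferases (Sult) and glutathione S-transferases (Gst) then attach glucuronic acid, sulfate or glutathione, and efflux pumps of the ABC class export the product. The enterocytes of the duodenum and jejunum are the main site of this work outside the liver, with Cyp3a enzymes the best known, and their genes are regulated by nuclear receptors such as PXR and by the aryl hydrocarbon receptor.

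Among the 57 tested members 4 passed the threshold in at least 1 comparison, and all 4 were highest in SeW: Sult1c2, Cyp4b1, Gstm2 and Cyp17a1. In SeW against DSW1200 all 4 passed, beside 2.72% of all genes, and in SeW against TW 1 passed, beside 1.91%. The promoters of these genes are printed here because all 4 passed in SeW against DSW1200. RefSeq promoter sequence of the rat build GRCr8, from 250 bases before to 50 bases after the start site, was at hand for 3 of the 4. Capitals mark a match, on either strand, to the core element of the aryl hydrocarbon receptor (GCGTG), the antioxidant response element (TGACNNNGC) or the core of a nuclear receptor site (AGGTCA).
Sult1c2, chr9:7436731-7437030, plus strand: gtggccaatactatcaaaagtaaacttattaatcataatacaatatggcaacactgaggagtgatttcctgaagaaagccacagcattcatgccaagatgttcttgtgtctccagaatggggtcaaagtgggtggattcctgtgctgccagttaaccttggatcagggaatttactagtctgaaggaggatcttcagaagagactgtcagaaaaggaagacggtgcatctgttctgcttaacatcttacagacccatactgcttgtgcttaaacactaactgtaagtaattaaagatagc
Gstm2, chr2:198316868-198317167, minus strand: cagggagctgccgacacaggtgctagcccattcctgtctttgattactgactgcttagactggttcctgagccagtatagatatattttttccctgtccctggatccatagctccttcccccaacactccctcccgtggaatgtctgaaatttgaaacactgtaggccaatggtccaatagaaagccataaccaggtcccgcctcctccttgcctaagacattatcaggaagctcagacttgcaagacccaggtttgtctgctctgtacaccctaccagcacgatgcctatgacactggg
Cyp4b1, chr5:134393067-134393366, minus strand: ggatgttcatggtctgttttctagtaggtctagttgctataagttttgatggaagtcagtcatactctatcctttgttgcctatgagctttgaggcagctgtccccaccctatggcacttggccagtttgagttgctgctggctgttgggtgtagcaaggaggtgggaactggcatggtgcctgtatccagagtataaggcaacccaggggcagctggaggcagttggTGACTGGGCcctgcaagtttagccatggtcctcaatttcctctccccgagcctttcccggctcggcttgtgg
Only 1 match stood in the 3 sequences. It was TGACTGGGC, the letters of the antioxidant response element, on the coding strand of Cyp4b1 from base -22, and it overlapped no other motif. Of all 33469 promoters of the same length, 12.1% held the antioxidant response element, 29.7% the aryl hydrocarbon receptor core and 16.2% the nuclear receptor core. Among 48 tested members with a promoter sequence the shares were 16.7% (8 members), 31.2% (15 members) and 10.4% (5 members). These counts describe letters in a short window.

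The question asked of all 4 groups was whether any member differed at all. By limma's F test over the 4 groups 0 of 57 members passed adjusted p 0.05 after Benjamini-Hochberg adjustment, and 15 had an unadjusted p under 0.05. Among all 9258 genes 0.616% passed and 17.6% had an unadjusted p under 0.05. The smallest adjusted p among members was 0.0659, for Sult1c2 and Cyp4b1, followed by Gstm2 (adjusted p = 0.079) and Cyp17a1 (adjusted p = 0.084). The members varied more between arrays of the same group than genes in general, with a median residual SD of 0.351 on the log2 scale against 0.26 for all tested genes.

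Sult1c2 is a cytosolic sulfotransferase that transfers sulfate to phenols and hydroxylated arylamines. Its signal was 24.6 and 23.3 under TW, 41.7 and 39.4 under WR, 26.7 and 30.4 under DSW1200, and 117 and 59.98 under SeW. Both SeW arrays lay above the 6 others, and both WR arrays lay above both TW and both DSW1200 arrays. SeW exceeded TW by 1.81 ± 0.30 (SE, n = 2 and 2) on the log2 scale, 3.51-fold with a 95% interval of 2.19 to 5.62, at adjusted p = 0.0267 by limma. It exceeded DSW1200 by 1.56 ± 0.30, or 2.95-fold, at adjusted p = 0.0343. WR stood 0.76 ± 0.30 above TW at adjusted p = 0.498. The call against TW was lost without any one of TW 2, WR 1, WR 2, SeW 1 and SeW 2 (adjusted p 0.0576 to 0.135), and that against DSW1200 without any one array of WR, DSW1200 or SeW (0.0693 to 0.184).

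Sult1c2 has close relatives beside it in the genome. Its neighbour Sult1c2a had signals of 209 and 229 under TW, 199 and 136 under WR, 98.2 and 158 under DSW1200, and 113 and 247 under SeW. The SeW arrays of Sult1c2a spanned the TW arrays, so it did not share the pattern. A dimmer probe set that the annotation assigns to Sult1c2 and a second gene together gave 25.9 and 18.5 in SeW against 17.9 and 11.3 in TW. Its DSW1200 arrays were 7.84 and 10.1, below both SeW arrays, but its WR arrays were 25.7 and 8.64, and it was not tested. How far related transcripts share these probes was not tested.

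Cyp4b1 is a P450 that hydroxylates fatty acids and activates some protoxins. Its signal was 108 and 223 under TW, 84.5 and 44.1 under WR, 116 and 96.1 under DSW1200, and 288 and 711 under SeW. Both SeW arrays were the highest of all 8 and both WR arrays the lowest, although the 2 SeW arrays differed from each other more than 2-fold. SeW exceeded DSW1200 by 2.10 ± 0.46 on the log2 scale (SE, n = 2 and 2), 4.29-fold with a 95% interval of 2.08 to 8.82, at adjusted p = 0.0466 by limma. Against TW the difference was 1.54 ± 0.46 with adjusted p = 0.114, and WR differed from TW by -1.35 ± 0.46 with adjusted p = 0.465. Without any one array of WR, DSW1200 or SeW the call against DSW1200 was lost (adjusted p 0.0584 to 0.308). With the beta-actin 3′ to 5′ ratio of the array as a covariate its sign turned, to -1.53 against DSW1200 and -0.90 against TW.

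Gstm2 is a class mu glutathione S-transferase that conjugates electrophiles and aminochrome. Its signal was 54.4 and 60.2 under TW, 48.6 and 51.4 under WR, 55.5 and 52.6 under DSW1200, and 92.3 and 114 under SeW. The 6 arrays outside SeW spanned a narrow range and the 2 SeW arrays lay clear of it. SeW exceeded DSW1200 by 0.92 ± 0.20 on the log2 scale (SE, n = 2 and 2), 1.90-fold with a 95% interval of 1.4 to 2.58, at adjusted p = 0.0440 by limma. The difference from TW was 0.84 ± 0.20 with adjusted p = 0.0617. Leaving out any one array of WR, DSW1200 or SeW removed the call against DSW1200 (adjusted p 0.0786 to 0.323).

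Cyp17a1 encodes steroid 17-alpha-hydroxylase, an enzyme of androgen synthesis, and is a member because its symbol begins with Cyp1. Its signal was 883 and 956 under TW, 927 and 694 under WR, 744 and 751 under DSW1200, and 1283 and 1898 under SeW. Both SeW arrays were above the 6 others, and both DSW1200 arrays were below both TW arrays. SeW exceeded DSW1200 by 1.06 ± 0.20 on the log2 scale (SE, n = 2 and 2), 2.09-fold with a 95% interval of 1.52 to 2.87, at adjusted p = 0.0338 by limma, and stood 0.76 ± 0.20 above TW at adjusted p = 0.0833. The call was lost without any one array of WR, DSW1200 or SeW (adjusted p 0.0513 to 0.240). With the beta-actin ratio as a covariate the sign turned, to -0.34 against DSW1200 and -0.18 against TW. As for Cyp4b1, this fit cannot separate the ratio from SeW.

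**Figure D1:**
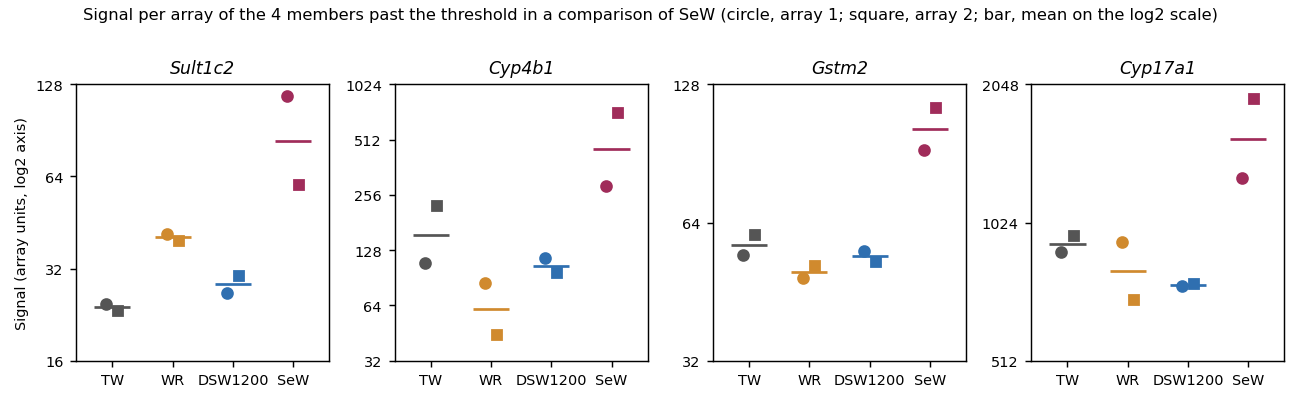
Signal in array units (log2 axis) of Sult1c2, Cyp4b1, Gstm2 and Cyp17a1 on each of the 8 arrays by group (TW, WR, DSW1200, SeW). Circles are array 1 of a group, squares are array 2 and bars are the group mean on the log2 scale, and in all 4 panels both SeW arrays lie above the 6 others.

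The SeW arrays also differed from the others in measures of RNA and cell content. The ratio of 3′ to 5′ beta-actin control probe sets, which increases as RNA or its copy is cut short, was 10.9 and 13.6 in SeW and 20.6 to 32.8 on the 6 other arrays. The summed signal of 19 measured enterocyte brush border markers was 57310 and 60710 in SeW, 48020 and 50410 in TW, 47370 and 48470 in DSW1200, and 44110 and 46770 in WR. Of these 19 genes 18 were above TW and 19 above DSW1200 in SeW, none past the threshold, but with each array scaled by its median only 10 and 12 were. Of 11 tested myeloid markers 11 were below TW in SeW (9 with median scaling). The summed signal of 9 intraepithelial lymphocyte markers was 153 and 167 in SeW and 225 to 378 on the other arrays. Relative to the median difference of all genes, 5 of the 6 tested were lower in SeW than in TW and 6 than in DSW1200 under each of the 3 scalings (quantile normalization, each array scaled by its median, and the values as deposited), with medians of -0.70 and -1.23 on the log2 scale. Gzma and Gzmb, granule proteases of cytotoxic lymphocytes, were called lower in SeW than in DSW1200, by -1.28 and -1.18 (limma, adjusted p = 0.0204 and 0.0325). Of 6 tested crypt markers 5 were higher in SeW than in TW and 4 than in DSW1200 by the same measure, with medians of 0.86 and 0.38 and none past the threshold. The Paneth cell defensin Defa24 was called 2.13 higher in SeW than in TW (limma, adjusted p = 0.0166), while Defa5 lay at or below the floor of 1 on every array. Neither the crypt nor the Defa24 difference was particular to SeW. In WR the crypt markers had a median of 0.91 against TW, and Defa24 was called 3.42 above TW (limma, adjusted p = 0.00934). Of 2 tested Paneth markers 0 were called in SeW against DSW1200. The part of all these measures in the differences of the 4 genes was not tested. In RNA from a mixed cell fraction, fewer cells of a type and less RNA per cell cannot be told apart.

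SeW against TW compared selenium water with tap water. The paper's selenium water was sodium selenite in distilled water, so the base water differed along with selenium. Of 57 members 1 passed (Sult1c2, higher), 16 had an unadjusted p under 0.05, and 7 were at least 2-fold higher with no overlap between the arrays, against 0 lower. Among all tested genes 1.91% passed adjusted p 0.05 (0.799% higher and 1.11% lower), 19.6% had an unadjusted p under 0.05, and 3.18% were 2-fold higher and 2.61% 2-fold lower without overlap. Groups did not overlap for 23 members on the higher side and 11 on the lower, beside 22.1% and 29.1% of all genes. The 7 members were Aldh1b1, Ces1d, Cyp20a1, Cyp4b1, Gstm5, Sult1c2 and Ugt2b15. For each of them but Sult1c2 the 2 TW arrays were over 2-fold apart. Ces1d (1.08) and Aldh1b1 (2.54) were near the floor of 1 on TW 2. Aldh1b1, Ces1d and Cyp20a1 were also 2-fold higher than TW without overlap in WR. The median difference of the members was 0.02 on the log2 scale, with 30 above and 27 below zero, and that of all genes was -0.04, with 46.5% above and 53.5% below zero. The call of Sult1c2 was lost without the filter on dim genes (limma, adjusted p = 0.103) and without the intensity trend of the test (0.118). It was also lost with the TW and SeW arrays alone (0.0751) and with the beta-actin ratio as a covariate (0.507). Of all genes 177 passed in the main fit, and 12, 1, 26 and 0 under these settings in that order.

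SeW against DSW1200 compared selenium water with deep sea water. By the paper's account DSW1200 was rich in sodium, potassium and magnesium and held a trace of selenium, so both salts and selenium differed. Of 57 members 4 passed, all higher in SeW, and 0 were lower, where 2.72% of all genes passed, 1.25% higher and 1.47% lower. Without overlap and at least 2-fold higher were 6 members (Cyp17a1, Cyp4b1, Gstm5, Sult1c2, Sult5a1 and Ugt2b10), beside 2.73% of all genes, and 0 members were 2-fold lower, beside 2.68%. The median member stood 0.22 above DSW1200 on the log2 scale, with 40 above and 17 below zero, and the median of all genes was -0.04, with 46.9% above and 53.1% below. Groups did not overlap for 16 members on the higher side and 5 on the lower, beside 24.3% and 29.5% of all genes. The members above the median of all genes numbered 42 with quantile normalization and 39 with either of the other scalings. All 4 calls were lost without the filter on dim genes (limma, adjusted p 0.0824 to 0.175) and without the intensity trend of the test (0.115 to 0.155). They were also lost with the beta-actin ratio as a covariate (0.953 to 0.984) and with the replicate number as a block (0.0501 to 0.0648). With median scaling those of Gstm2 (0.0802) and Cyp17a1 (0.123) were lost. Of all genes 252 passed in the main fit. Without the filter 19 passed, without the trend 1, with the beta-actin ratio 0, with the block 116 and with median scaling 70. This comparison shares its SeW arrays with that against TW.

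WR against TW asked about 12 h without water. Of 57 members 0 passed in limma, 16 had an unadjusted p under 0.05, and 3 were 2-fold higher and 3 2-fold lower without overlap. Of all genes 0.0108% passed, 9.7% had an unadjusted p under 0.05, and 2.42% and 1.14% were 2-fold higher and lower without overlap. The median member was at -0.18 on the log2 scale and the median gene at -0.01. Above zero were 20 members and below it 37, beside 48.9% and 51.1% of all genes. Groups did not overlap for 12 members on the higher side and 22 on the lower side, 21.1% and 38.6% of the members, beside 18.4% and 21.3% of all genes. The largest difference among the members was that of Aldh1b1, 2.26 ± 0.62 on the log2 scale (limma, adjusted p = 0.399). Markers of other cells also stood apart in WR. The 1 gene called among all 9258 was Defa24, 3.42 above TW (limma, adjusted p = 0.00934). Above the median difference of all genes, under each of the 3 scalings, were 8 of 8 fibroblast markers (median 0.63 on the log2 scale), 8 of 11 myeloid markers (0.57), 5 of 6 intraepithelial lymphocyte markers (0.72), 5 of 6 crypt markers (0.91) and 4 of 4 tested acinar markers of the pancreas (1.96). Of 19 brush border markers 8 were (-0.10), and 2 with either of the other scalings. Of 7 goblet markers 3 were, and 2 with either of the other scalings. Under each scaling 3 of 4 smooth muscle, 0 of 6 enteroendocrine and 0 of 3 hepatocyte markers were. The summed signal of 8 acinar markers was 110 and 590 in WR and 179 and 42.7 in TW, so WR 1 lay within TW. The part of all these markers in the lower position of the members was not tested.

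DSW1200 against TW asked what deep sea water changed. In limma 0 of 57 members passed, 4 had an unadjusted p under 0.05, and 2 were 2-fold higher and 1 2-fold lower without overlap. The shares of all genes were 0% past the threshold, 7.92% at an unadjusted p under 0.05, and 1.8% and 1.09%. The median member was at -0.07 on the log2 scale and the median gene at -0.02, with 23 members above and 34 below zero beside 47.6% and 52.4% of all genes, and 9 members stood higher and 9 lower without overlap, beside 16.6% and 19.2%. All 3 comparisons with TW share the TW arrays.

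These splits depend on how arrays are scaled. Without normalization between arrays all genes shifted by a median of 0.38 in WR, 0.05 in DSW1200 and 0.92 in SeW against TW, and by 0.84 in SeW against DSW1200. On that scale 34, 29, 57 and 57 of the 57 members were above zero in these 4 comparisons, but 19, 25, 28 and 39 were above the median of all genes. With quantile normalization the last counts were 20, 26, 31 and 42.

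**Figure D2:**
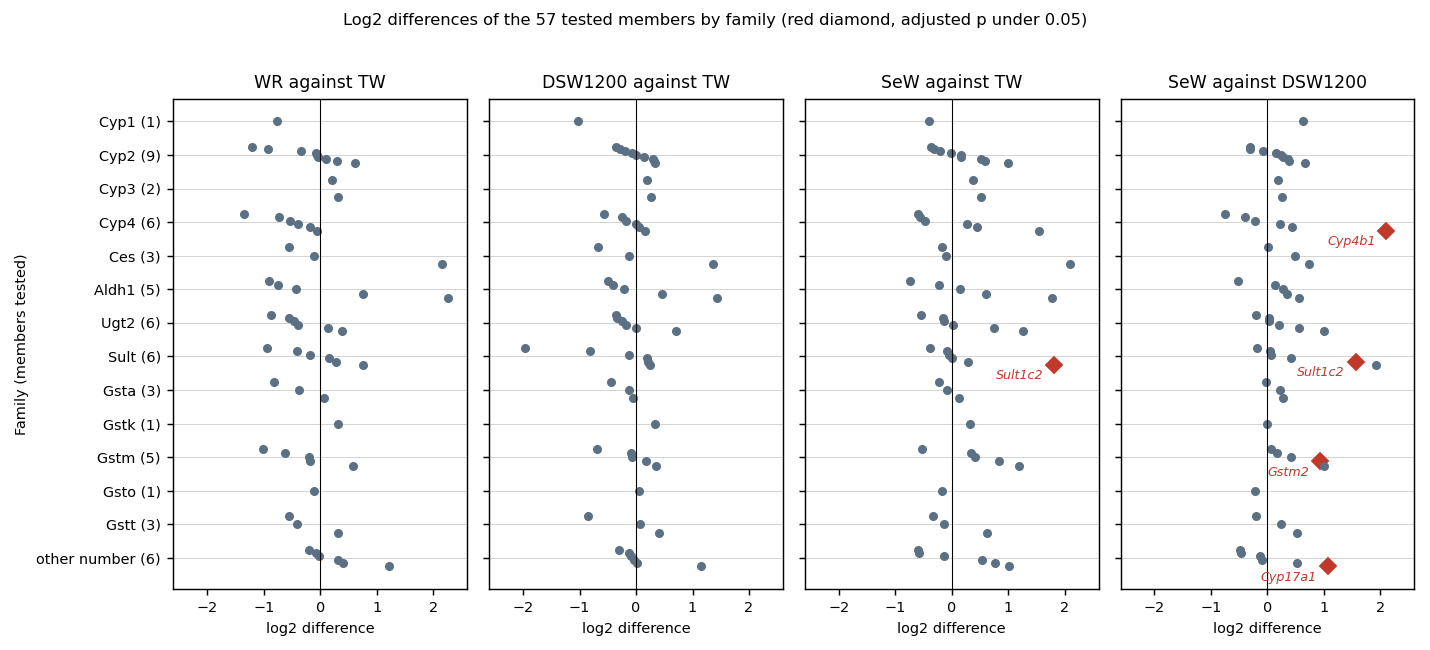
Log2 difference (x axis) of each of the 57 tested members by family (y axis, with the number tested) in WR, DSW1200 and SeW against TW and in SeW against DSW1200. Each point is 1 gene and red diamonds are members past adjusted p 0.05, which are Sult1c2 in SeW against TW and 4 members in SeW against DSW1200, all to the right of zero.

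The P450s of families 1 to 3 came first in order of function. Cyp1a1, the classic target of the aryl hydrocarbon receptor and an oxidizer of polycyclic aromatic compounds, varied widely between arrays of the same group. Its signal was 948 and 480 under TW, 423 and 369 under WR, 107 and 1034 under DSW1200, and 339 and 771 under SeW. The lowest and the highest values were the 2 arrays of DSW1200, 9.69-fold apart, and the F test gave adjusted p = 0.781. Its relatives Cyp1a2 and Cyp1b1 were dim, with mean signals of 3.88 and 3.20, and so were the receptor Ahr and its partner Arnt, whose signals did not exceed 13.0 and 4.98 on any array.

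Cyp3a9 and Cyp3a18, of the subfamily that oxidizes the widest range of drugs, were steadier. Cyp3a9 gave 3433 and 3709 under TW, 4469 and 4373 under WR, 4373 and 3821 under DSW1200, and 4643 on both SeW arrays. Both TW arrays were the lowest of the 8, the highest was 1.35 times the lowest, and the F test gave adjusted p = 0.283. Cyp3a18 read 748 and 589 under TW, 729 and 810 under WR, 702 and 904 under DSW1200, and 926 and 975 under SeW, with adjusted p = 0.344 and the SeW arrays highest. On these normalized values both genes were above TW in all 3 other groups, but with arrays scaled by the median neither was in WR and 1 of 2 was in SeW. Cyp3a2 and Cyp3a23-3a1, expressed in liver, were dim.

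Cyp2 was the largest family and held the most dim genes, 16 of 25, among them all 7 measured Cyp2c genes. Cyp2j4, an epoxygenase of the intestine, had 2198 and 2151 under TW, 2449 and 2206 under WR, 2386 and 1801 under DSW1200, and 2636 and 2247 under SeW (limma F test, adjusted p = 0.707). No group of Cyp2j4 stood clear of the rest. Cyp2s1, an extrahepatic P450 that metabolizes retinoids, read 162 and 169 under TW, 194 and 128 under WR, 243 and 174 under DSW1200, and 230 and 269 under SeW (adjusted p = 0.314). Its SeW arrays lay above both TW and both WR arrays and overlapped with DSW1200. Cyp2t1 was lower on both WR arrays (6.53 and 8.40) than on the 6 others (12.1 to 18.4), a log2 difference from TW of -1.21 ± 0.38 with a limma F test adjusted p of 0.272.

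Cyp4 enzymes oxidize fatty acids and eicosanoids at the end of the chain. In WR 0 of 6 tested Cyp4 genes were above the median difference of all genes, under each of the 3 scalings, and 0 of 6 passed the test. Beside Cyp4b1, Cyp4f5 had 216 and 164 under TW, 133 and 94.9 under WR, 238 and 184 under DSW1200, and 124 and 123 under SeW. Both WR and both SeW arrays of Cyp4f5 lay below all TW and DSW1200 arrays (limma F test, adjusted p = 0.137), so in SeW it stood on the other side from Cyp4b1. Cyp4f1 read 1970 and 1436 under TW, 1780 and 1461 under WR, 1944 and 1452 under DSW1200, and 2570 and 2027 under SeW, the 2 SeW arrays highest (adjusted p = 0.390). Cyp4a1, a target of PPARα and the neighbour of Cyp4b1 in the genome, ranged from 47.1 to 99.98 with both WR arrays lowest (adjusted p = 0.214).

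Carboxylesterases split esters and amides. Ces2c, the main form of the rat intestine, had 271 and 316 under TW, 229 and 172 under WR, 175 and 193 under DSW1200, and 259 and 257 under SeW. TW was highest and DSW1200 and WR were lower without overlap, by -0.67 ± 0.18 and -0.56 ± 0.18 on the log2 scale, with a limma F test adjusted p of 0.185. Ces1e had the narrowest range of the tested members, from 530 to 667 over the 8 arrays or 1.26-fold, closely followed by Gsto1 (limma F test of Ces1e, adjusted p = 0.905). Ces1d lay just above the threshold with a mean signal of 6.94, and was at 1.08 on TW 2 against 3.85 to 13.2 on the other arrays.

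Aldh1 enzymes make retinoic acid from retinal and clear aldehydes. Aldh1a1 read 911 and 1303 under TW, 821 and 506 under WR, 602 and 980 under DSW1200, and 871 and 1000 under SeW (limma F test, adjusted p = 0.371). Its TW arrays lay above both WR arrays and overlapped with the other groups. Aldh1b1, a mitochondrial form, had 8.41 and 2.54 in TW and 10.8 to 33.7 on the 6 others (adjusted p = 0.223), so that TW was lower than each of the other groups without overlap. Aldh1l1, which oxidizes 10-formyltetrahydrofolate, had 214 and 193 under TW, 160 and 141 under WR, 132 and 179 under DSW1200, and 218 and 232 under SeW, where WR and DSW1200 lay below TW and SeW above it (adjusted p = 0.233).

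Among the conjugating enzymes, Ugt2 genes attach glucuronic acid to steroids, bile acids and drugs. Ugt2b10 had 1372 and 949 under TW, 1635 and 1372 under WR, 932 and 978 under DSW1200, and 2386 and 1535 under SeW. Its SeW arrays overlapped with WR, where 1 array exceeded the lower SeW array, and lay above those of TW and DSW1200. The difference of SeW from DSW1200 was 1.00 ± 0.23 on the log2 scale (limma, adjusted p = 0.0536). Apart from fits with an array left out, this difference passed under 5 of 10 other settings. Among them was the deposited scale, where 3738 of all genes passed. Ugt2b15 read 243 and 105 under TW, 235 and 132 under WR, 201 and 337 under DSW1200, and 424 and 350 under SeW, with the SeW arrays highest (limma F test, adjusted p = 0.261). Ugt2b35 ranged from 954 to 1871 with overlap between the groups (adjusted p = 0.677). The 8 Ugt2 genes form 1 run with Sult1b1, Sult1d1 and Sult1e1 in the genome, and 7 of these 11 neighbours were tested. No Ugt1 gene has a probe set to itself on the array.

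Of the remaining sulfotransferases, Sult6b2, Sult1b1 and Sult2b1 stayed within 1.5-fold over the arrays. Sult6b2 read 3768 and 3907 under TW, 4330 and 4254 under WR, 4843 and 3955 under DSW1200, and 3709 and 4032 under SeW (limma F test, adjusted p = 0.617). Sult1b1, which sulfates thyroid hormones and small phenols and is the main form of the intestine, had 1461 and 1388 in TW and 1607 to 1854 on the other arrays (adjusted p = 0.452), lowest in TW. Sult2b1, which sulfates cholesterol and other 3β-hydroxysteroids, ranged from 414 to 547 (adjusted p = 0.869), but a second, dimmer probe set of it differed by 1.00 between SeW and TW on the log2 scale where the brighter one differed by -0.09. Sult1a1, the general phenol sulfotransferase, fell just under the threshold with a mean signal of 6.64, and Sult5a1, just above it at 8.22, varied 7.97-fold over the arrays.

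Glutathione S-transferases conjugate electrophiles. In SeW against DSW1200 5 of 5 tested Gstm genes were above the median difference of all genes under each of the 3 scalings, and 1 of the 5, Gstm2, passed, beside 1.25% of all genes. With the beta-actin ratio as a covariate, a fit that cannot separate the ratio from SeW, 3 of 5 were above that median. Gstm2 shares a run of 7 neighbouring Gstm genes with the other 4. Gstm4 read 151 and 326 under TW, 198 and 192 under WR, 267 and 166 under DSW1200, and 325 and 244 under SeW, its 2 TW arrays enclosing all others (limma F test, adjusted p = 0.682). Gstm1 had 14.9 and 20.3 under TW, 13.6 and 5.49 under WR, 23.4 and 21.3 under DSW1200, and 23.7 and 22.7 under SeW, with both WR arrays lowest (adjusted p = 0.236).

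Alpha-class Gsta3 had 687 and 573 under TW, 470 and 490 under WR, 540 and 608 under DSW1200, and 667 and 710 under SeW (limma F test, adjusted p = 0.254). WR was lower than every other group without overlap. Gsta1 ranged from 13.2 to 32.3 (adjusted p = 0.532). Gstk1, a mitochondrial and peroxisomal form, had 250 and 185 in TW and 251 to 287 on the 6 others (adjusted p = 0.515), with TW lowest. Gsto1, which reduces dehydroascorbate and arsenicals, kept to 1007 to 1273 over all 8 arrays (adjusted p = 0.640). Gstt2 and Gstt3, of the theta class, ranged from 44.6 to 110 (adjusted p = 0.663) and from 288 to 602 (adjusted p = 0.648), and the 2 SeW arrays of Gstt3 were 602 and 302.

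**Figure D3:**
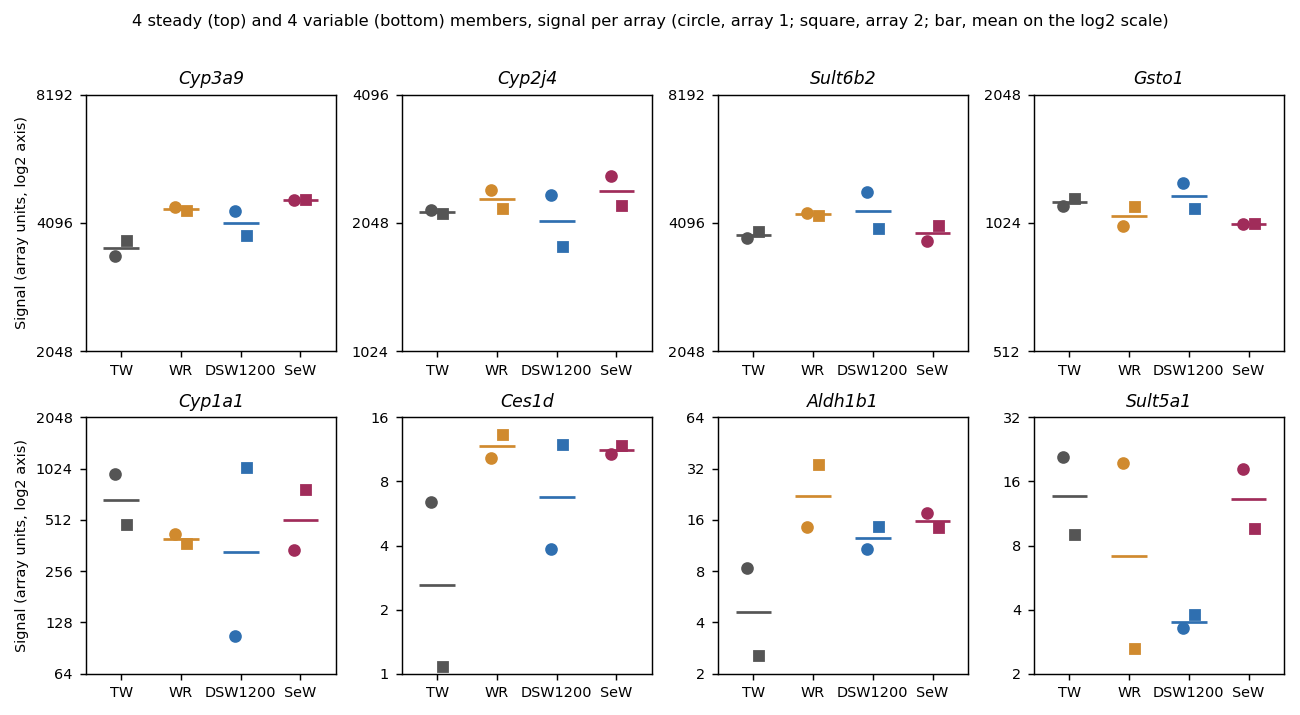
Signal in array units (log2 axis) on each of the 8 arrays for Cyp3a9, Cyp2j4, Sult6b2 and Gsto1 (top), whose highest array was under 1.5 times the lowest, and for Cyp1a1, Ces1d, Aldh1b1 and Sult5a1 (bottom). Circles are array 1, squares array 2 and bars the group mean on the log2 scale, and the 2 arrays of DSW1200 are 9.69-fold apart for Cyp1a1.

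Spread within a group set much of the picture. The 2 arrays of TW were over 2-fold apart for 12 of 57 members (21.1%), beside 10.4% of all genes, and those of WR, DSW1200 and SeW for 4, 6 and 3 members (7.02%, 10.5% and 5.26%), beside 4.86%, 8.46% and 3.65%. TW 2 had the lowest mean correlation with arrays of other groups (0.907, the others 0.920 to 0.929) and the lowest deposited median signal (4.3, the others 6.1 to 11.1). Over all 8 arrays 9 members stayed within 1.5-fold: Ces1e, Gsto1, Gsta4, Sult6b2, Sult2b1, Sult1b1, Cyp3a9, Cyp2j4 and Cyp2d4.

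**Figure D4:**
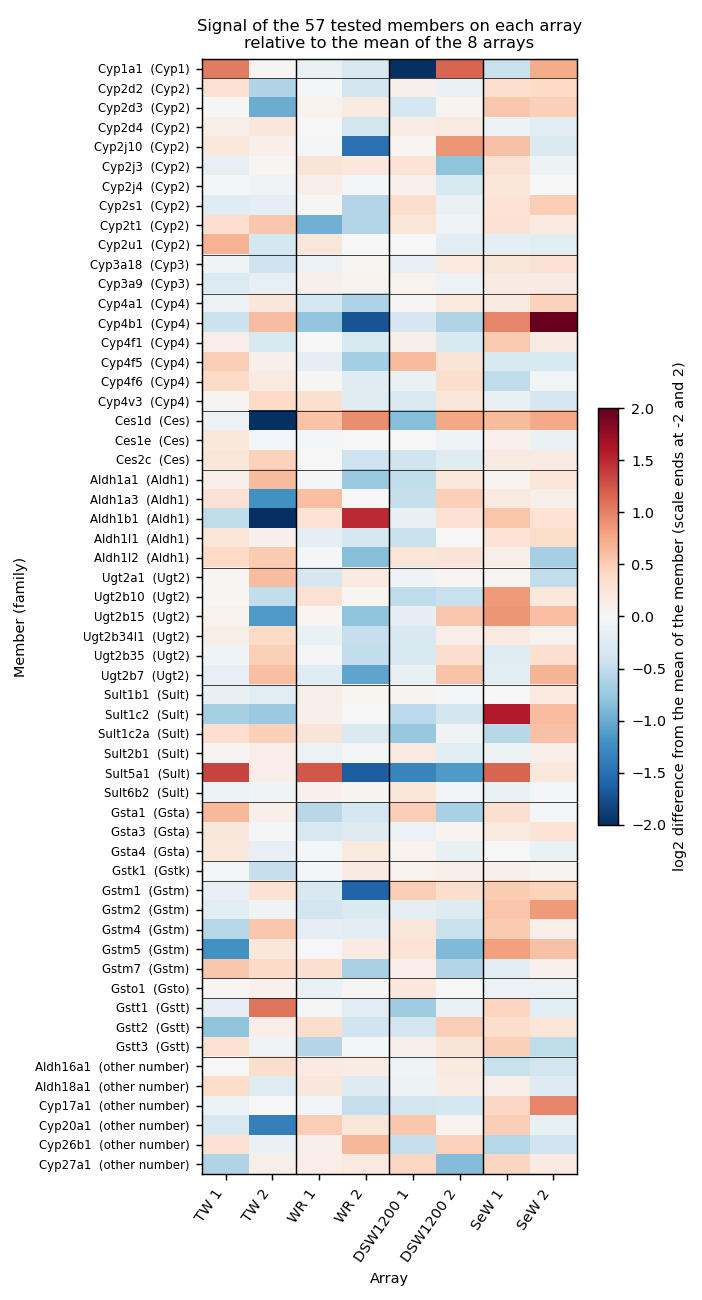
Signal of the 57 tested members (rows, by family) on each of the 8 arrays (columns), as the log2 difference from the mean of that gene over the 8 arrays, red above and blue below. Sult1c2, Cyp4b1 and Cyp17a1 are red on both SeW arrays, while TW 2 is blue for Ces1d, Aldh1b1, Cyp20a1 and Ugt2b15.

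The 14 members whose symbol continues the family number with another digit act mostly on steroids, retinoids, vitamin D and amino acids, and 6 were tested. Beside Cyp17a1, Aldh16a1 had 241 and 305 under TW, 266 and 265 under WR, 227 and 274 under DSW1200, and 175 and 185 under SeW. Both SeW arrays of Aldh16a1 were below the 6 others, by -0.59 ± 0.18 against TW on the log2 scale, with a limma F test adjusted p of 0.231. Without these 14 genes 3 of 51 members passed in SeW against DSW1200, beside 2.72% of all genes. In SeW against TW 1 of 51 passed, beside 1.91% of all genes.

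The partners of these enzymes were counted in the same tests, in which 0.616% of all genes passed the F test and 17.6% had an unadjusted F p under 0.05. Of 10 tested regulators, among them Nr1i2 (PXR), Nr1i3 (CAR) and Nfe2l2, 0 passed in limma's F test or in any of the 4 comparisons, and 2 had an unadjusted F p under 0.05. Of 6 electron donors and other P450 partners 0 passed. Por, the NADPH reductase that all microsomal P450s need, read 242 and 363 under TW, 118 and 156 under WR, 203 and 225 under DSW1200, and 241 and 299 under SeW, lowest in WR, with limma F test adjusted p = 0.102. Of 10 genes that supply UDP-glucuronic acid, activated sulfate and glutathione 0 passed, and 0 had an unadjusted F p under 0.05.

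Of 27 other enzymes of the same pathways, such as flavin monooxygenases, epoxide hydrolases and methyltransferases, 1 passed the F test, 1 passed in SeW against TW and 2 passed in SeW against DSW1200, all higher in SeW, beside 0.616%, 1.91% and 2.72% of all genes. Aldh3a2, which oxidizes fatty aldehydes, had 445 and 414 under TW, 259 and 248.8 under WR, 292 and 298 under DSW1200, and 514 and 564 under SeW, so WR and DSW1200 lay below TW and SeW above it (limma F test, adjusted p = 0.0325). Hnmt, which methylates histamine, had 79.6 and 56.6 under TW, 123 and 133 under WR, 116 and 104 under DSW1200, and 174 and 170 under SeW, lowest in TW and 1.36 ± 0.20 higher in SeW on the log2 scale (adjusted p = 0.0166). Fmo4, a flavin monooxygenase, had 239 and 225 in SeW and 95.4 to 170 on the other arrays, and SeW exceeded DSW1200 by 1.10 ± 0.19 (adjusted p = 0.0259). All of these calls were lost without the filter on dim genes, without the intensity trend, with the beta-actin ratio as a covariate and without either SeW array. The adjusted p without SeW 1 and without SeW 2 was 0.176 and 0.287 for Aldh3a2 in the F test, 0.11 and 0.141 for Hnmt, and 0.141 and 0.18 for Fmo4. The F test call of Aldh3a2 was also lost without WR 1, WR 2 or DSW1200 2 (adjusted p 0.0501 to 0.132), its call against DSW1200 without any one array of WR, DSW1200 or SeW (0.055 to 0.202), and that of Fmo4 without WR 2 (0.0511) or DSW1200 1 (0.0886). When its probe sets were averaged, Hnmt differed by 0.25 (adjusted p = 0.777).

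Of 5 tested efflux pumps 1 passed, in the F test and in SeW against both TW and DSW1200, beside 0.616%, 1.91% and 2.72% of all genes. Abcb1a, P-glycoprotein, which returns drugs from the enterocyte to the lumen, had 33.2 and 23.9 under TW, 36.8 and 60.01 under WR, 34.8 and 18.3 under DSW1200, and 235 and 250 under SeW. Both SeW arrays stood far above the 6 others. SeW exceeded TW by 3.11 ± 0.34 on the log2 scale (limma, adjusted p = 0.00974) and DSW1200 by 3.27 ± 0.34 (0.00536), larger than for any of the 57 enzymes. The call against TW was lost without SeW 1 (adjusted p = 0.0558) or SeW 2 (0.0834), and that against DSW1200 without SeW 2 (0.0723). Both calls were also lost without the filter on dim genes (0.0792 and 0.0629), without the intensity trend (0.0965 and 0.0755) and with the beta-actin ratio as a covariate (0.194 and 0.531).

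Markers of liver and pancreas were also measured. Of 8 hepatocyte markers 3 were tested, Alb lay at 6.61 or less on every array, and the summed signal was 43.9 to 79.2. The summed signal of 8 pancreatic acinar markers was 590 on WR 2 and 42.7 to 179 on the other arrays. The parts of other tissues in the values of the members were not tested.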

How the data were processed

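RNA of the loosened intestinal epithelium was hybridized to Affymetrix Rat Genome 230 2.0 arrays, 2 for each of 4 groups. The methods state female rats, SeW as sodium selenite in distilled water and the hardness of DSW1200 in ppm. The authors deposited 1 linear intensity for each probe set and array, made with MAS5 per the submitters' processing notes. Its version and scaling target are not given in the sources used here. The study's methods state quantile normalization, but deposited medians ran from 4.3 to 11.1, so the intensities were taken as not normalized between arrays.

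Arrays were quantile normalized, floored at 1 and put on the log2 scale; 18.0% of all values and 0.0810% of tested values lay at this floor. Of 31099 probe sets 20826 had 1 gene symbol, 436 several and 9780 none, by the platform annotation with symbols updated through Entrez gene numbers, and 57 were controls. A gene's brightest probe set stood for it, and 9258 genes brighter than the median probe set were tested with limma 3.58.1 (R 4.3.3) in a linear model of group over 8 arrays (residual degrees of freedom 4), eBayes with trend, and adjusted p 0.05 after Benjamini-Hochberg adjustment over all tested genes. The F test covered the 3 contrasts with TW. The median SE of a log2 difference was 0.264. The number of arrays limits the precision.

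The members and the gene lists were chosen with earlier results of these data known. Named were all members past the threshold, the brightest and the 2 with the smallest F test p of each family, and a fixed set of known intestinal enzymes. Of the other lists, genes past the threshold and up to 3 with the smallest F test p could be named. Alternatives were the deposited scale, median scaling, no or a stricter filter on dim genes, an offset of 32 in place of the floor, averaging the probe sets of a gene, eBayes without trend, a fit of the compared arrays alone, replicate number as block, the beta-actin 3′ to 5′ ratio as a covariate, each array left out, a 2-fold difference without overlap between arrays, and only the named family numbers. A 2-fold difference alone, the criterion the study's methods state, was added after the data were seen. The steps were tested on simulated data.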

Additional observations from a re-analysis of the deposited data

How the results depend on the processing

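The F test over the 4 groups called 0 of 57 members in the main fit, beside 57 of all genes. On the deposited scale it called 30 members, beside 2766 of all genes. With median scaling it called 2 members, beside 42 of all genes, and with the offset of 32 it called 1, beside 98. WR against TW gave 0 calls in the main fit, beside 1 of all genes. At 2-fold 6 members passed with or without the condition of no overlap, beside 330 of all genes without overlap and 444 at 2-fold alone. DSW1200 against TW gave 0 calls, beside 0 of all genes. At 2-fold without overlap 3 members passed, beside 268 of all genes, and at 2-fold alone 5 passed, beside 394. The rule of 2-fold alone was chosen after seeing the data. SeW against TW gave 1 call in the main fit, beside 177 of all genes. On the deposited scale 35 members passed, beside 4380 of all genes. With the stricter filter 2 members passed, beside 265 of the genes it kept. At 2-fold 7 members passed by either rule, beside 536 of all genes without overlap and 630 at 2-fold alone. Without the filter, without the trend, with only the arrays compared or with the beta-actin ratio 0 members passed. Those fits called 12, 1, 26 and 0 of all genes in that order. SeW against DSW1200 gave 4 calls in the main fit, beside 252 of all genes. On the deposited scale 31 members passed, beside 3738 of all genes. With median scaling 2 members passed, beside 70 genes, and with the mean of probe sets 2, beside 141. With the replicate block 1 member passed (Ugt2b10), beside 116 genes. At 2-fold 6 members passed by either rule, beside 501 of all genes without overlap and 574 at 2-fold alone. Without the filter, without the trend or with the beta-actin ratio 0 members passed, beside 19, 1 and 0 genes. On the deposited scale all genes were shifted by a median of 0.918 in SeW against TW and 0.84 against DSW1200. The medians of the members in WR against TW were 0.20 on the deposited scale and -0.217 to -0.0438 with an array left out, in DSW1200 against TW 0.0137 on the deposited scale, -0.00222 without the filter, 0.0314 with the beta-actin ratio and -0.0841 to -0.0307 with an array left out. In SeW against TW they were 0.915 on the deposited scale, 0.0629 with median scaling, -0.0292 without the filter, 0.14 with the mean of probe sets, 0.0812 with the beta-actin ratio and 0.0232 to 0.137 with an array left out, and in SeW against DSW1200 1.10, 0.373 with median scaling, 0.00749 without the filter, 0.123 with the offset and 0.0863 to 0.217 with an array left out. With the beta-actin ratio Cyp4b1 reversed to -0.90 against TW and -1.53 against DSW1200, and Cyp17a1 to -0.18 and -0.34. In that fit 0 of all genes passed in either comparison, and it cannot separate the ratio from SeW. The cause of these changes was not tested. Arrays with the same number did not deviate together over all tested genes (correlations of -0.06 to 0.04). The labels do not say whether the numbers pair samples, and these correlations cannot settle it, because a pairing could act on few genes. The replicate block left 1 call in SeW against TW and 1 in SeW against DSW1200.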

Other observations

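Probe sets that the annotation assigns to several members were not tested and are given by array. Of 2 probe sets shared by the Ugt1a genes, which conjugate bilirubin and phenols, the brighter read 4373 and 4900 under TW, 4072 and 3821 under WR, 4113 and 4397 under DSW1200, and 4330 and 4313 under SeW. The other read 1380 and 1138 under TW, 1226 and 1056 under WR, 1021 and 1141 under DSW1200, and 1927 and 2057 under SeW, so both SeW arrays were highest on the second and within the range of TW and DSW1200 on the first.

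A probe set shared by Gsta5 and Gsta2 read 4313 and 4726 under TW, 3299 and 3076 under WR, 3403 and 3480 under DSW1200, and 4426 and 5004 under SeW. WR and DSW1200 lay below TW and SeW without overlap. One shared by Cyp2b2 and Cyp2b1, the P450s known for induction by phenobarbital, read 427 and 595 under TW, 639 and 192 under WR, 453 and 206 under DSW1200, and 256 and 214 under SeW, with the 2 arrays of WR and of DSW1200 over 2-fold apart.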
